A study of Bos taurus with 6 samples.

Results

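Genes of the actin filament and of the striated muscle sarcomere were examined in bovine embryos produced by in vitro fertilization (IVF). The 10 genes were ACTB and ACTG1, which encode the cytoplasmic actins, ACTA1 and ACTA2, which encode the skeletal and smooth muscle alpha actins, the tropomyosin genes TPM1, TPM2 and TPM3, the fast skeletal troponin C gene TNNC2, the Z-disc protein gene MYOZ2 and the myosin light chain gene MYL6. They are 10 of the 9155 genes that the annotation names singly, and were represented by 19 of the 24036 probe sets on the Affymetrix bovine array, which were chosen by their gene annotation alone, and every one was kept. However, the 10 genes had been picked with the differences between the embryo groups on these same arrays in view. The member contrasts below are therefore a description of these pools and are given without a test.

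Both groups of embryos came from oocytes aspirated from the ovaries of abattoir cows, which were matured and fertilized in vitro, and both had compacted into morulae during culture. At day 8 the embryos that had formed a blastocoele were collected as blastocysts, and the compacted embryos that had not were collected as degenerative embryos. Each of the 6 arrays held amplified RNA from 1 pool of 20 whole embryos, with 3 pools (A, B and C) per group, and all tissues of the embryo were therefore mixed in each value. In such bulk samples fewer cells of a type and less RNA per cell cannot be told apart, and p-values measure only the spread between pools.

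Actin monomers polymerize into filaments that shape the cell cortex, and tropomyosins lie along the filament and control which proteins reach it. In striated muscle, calcium binding to troponin C moves tropomyosin and lets myosin pull on alpha actin, while calsarcin proteins such as MYOZ2 anchor calcineurin and other proteins at the Z-disc. The preimplantation embryo has no muscle, but its cells depend on cytoplasmic actin and nonmuscle myosin for compaction, for apical polarity and for sealing the trophectoderm around the blastocoele.

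All levels are on the log2 scale of the deposited values, where a difference of 1 is a doubling. The array floor lay at 2.12, and between 27.4% and 28.6% of the probe sets of each array were within 0.01 of it. Levels of different probe sets are not comparable with each other, so each is set only against itself across pools. Where a gene had several probe sets, they are numbered in the order in which the plot of levels by pool shows them. The degenerative A pool stood apart from the other degenerative pools, with a Pearson r across probe sets of 0.938 with B and 0.936 with C, against 0.987 between B and C. The blastocyst pools had r values between 0.972 and 0.994.

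Muscle actin, troponin C and 1 of the ACTG1 probe sets were lower in the degenerative pools, whereas 1 TPM1 and 1 MYOZ2 probe set were higher. Of the 15 member probe sets that could be tested, 5 had all degenerative pools below all blastocyst pools, as did 8.93% of all 18937 tested probe sets. Another 2 were higher in every degenerative pool, as were 6.48% of all tested probe sets, and for the remaining 8 the pools overlapped. The 4 members not tested were 3 array control probe sets of ACTA1 and a MYOZ2 probe set with a single value on all arrays. The median difference of the 15, degenerative minus blastocyst, was 0.06, against 0.00 over all tested probe sets.

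Across the whole array, limma called 4 probe sets at an adjusted p of at most 0.15 (0.0211% of those tested), and none was a member. SAM, the permutation method of the study, called 67 at the same false discovery rate (0.354%), of which TNNC2 was 1. An unadjusted limma p under 0.05 was reached by 4 of the 15 members and by 8.61% of all tested probe sets. Because the contrast was known when the genes were picked, nothing is read from these counts.

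**Figure D1:**
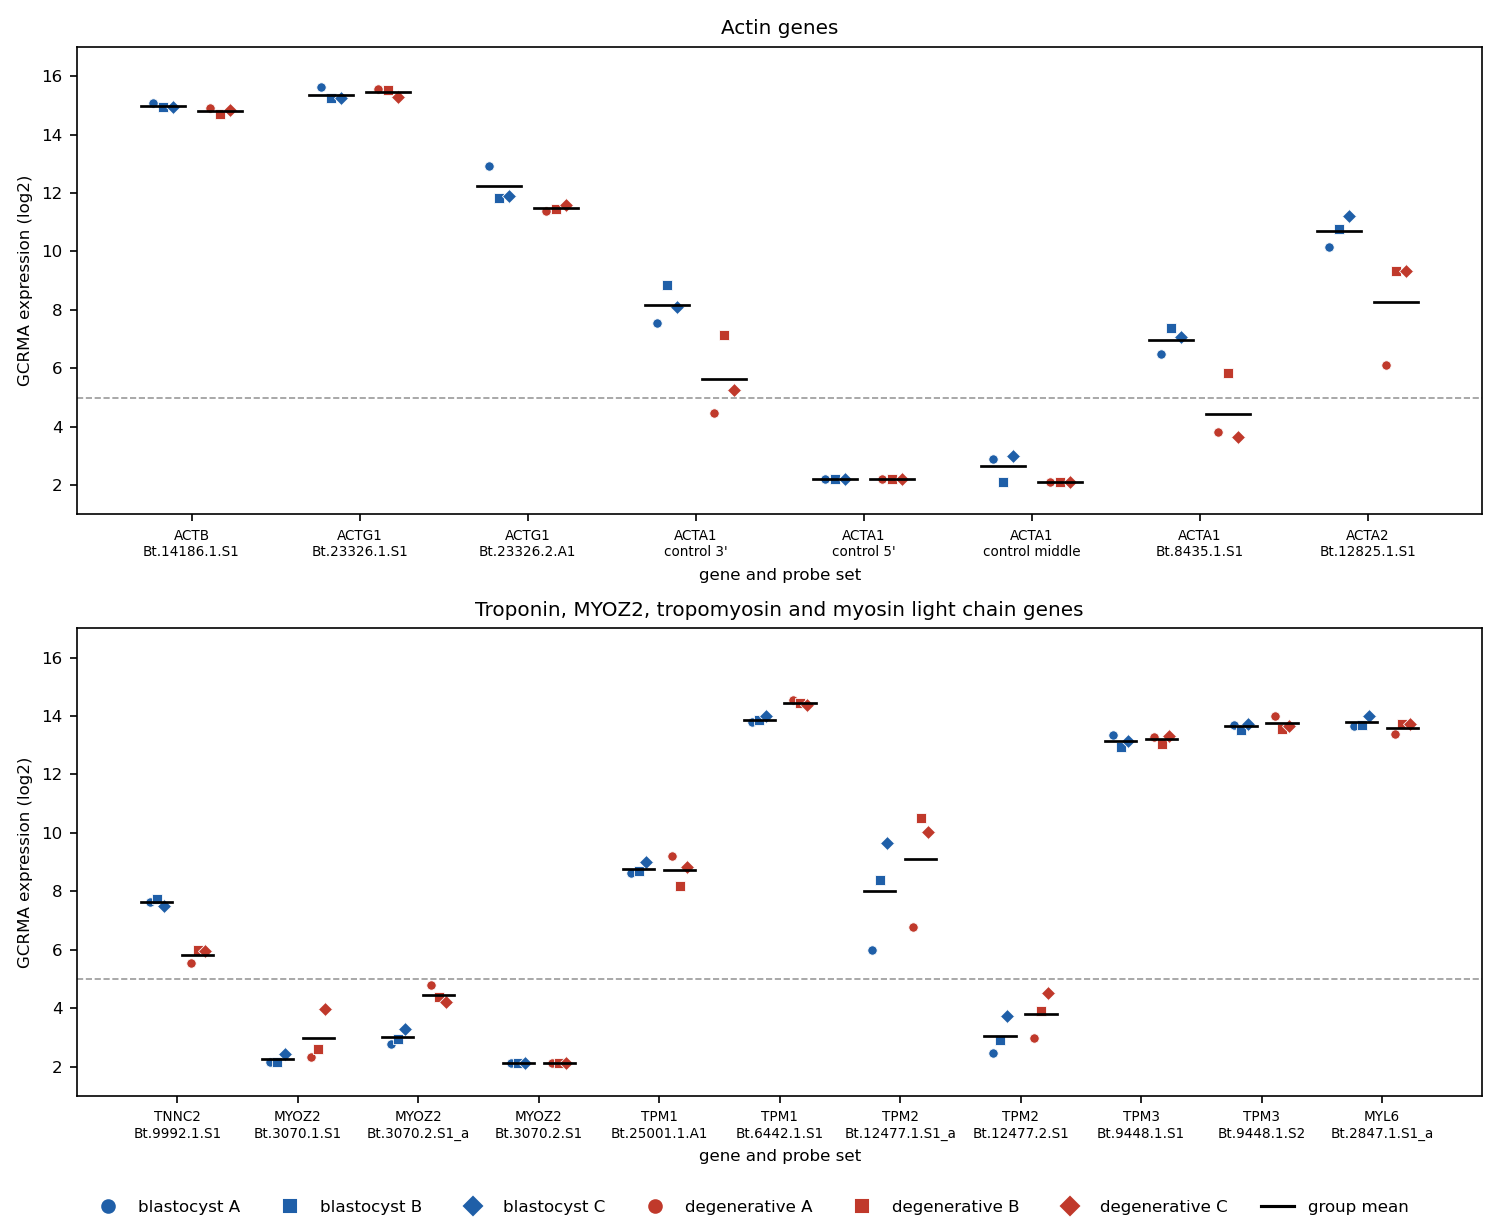
Log2 GCRMA level of each member probe set in the 6 pools, actin genes above and the other genes below, with blue marks for blastocyst pools, red marks for degenerative pools, a shape for each pool letter, a black line at each group mean and a dashed line at a level of 5. The marks of TNNC2 (7.50 to 7.74 in blastocysts, 5.55 to 5.99 in degenerative embryos) and of the second TPM1 probe set (13.79 to 13.99 against 14.39 to 14.54) do not overlap, whereas those of TPM3 and MYL6 do.

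The cytoplasmic actins had high levels in every pool. ACTB, the gene of beta actin, had levels of 15.07, 14.96 and 14.94 in blastocyst pools A, B and C and of 14.91, 14.71 and 14.85 in the degenerative pools. Every degenerative pool lay below every blastocyst pool, but the difference was only -0.17 ± 0.07 (SE of the difference, n = 3 pools per group, as for all differences of members).

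ACTG1, the gene of the second cytoplasmic actin, was represented by probe sets that differed from each other. The first probe set read 15.62, 15.25 and 15.24 in blastocysts and 15.55, 15.54 and 15.29 in degenerative embryos. Its pools overlapped, with a difference of 0.09 ± 0.15. The second ACTG1 probe set read 12.93, 11.84 and 11.91 in blastocysts and 11.40, 11.45 and 11.61 in degenerative embryos. It was lower in all 3 degenerative pools, by -0.74 ± 0.36, but blastocyst A carried much of this. Leaving out blastocyst A gave -0.39, and leaving out both A pools gave -0.34.

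The alpha actins, which make up the thin filaments of muscle, had the largest differences among the members. ACTA1, the skeletal muscle alpha actin, read 6.49, 7.39 and 7.07 in blastocyst pools A, B and C on the probe set for the gene, and 3.83, 5.86 and 3.67 in the degenerative pools. The groups did not overlap, and the means were 6.98 ± 0.46 (SD, n = 3) in blastocysts and 4.45 ± 1.22 in degenerative embryos. The difference was -2.53 ± 0.75, although degenerative A and C were under a level of 5. It was in the same direction within each letter, at -2.66 for A, -1.54 for B and -3.40 for C, and was -2.22 without degenerative A and -3.23 without degenerative B.

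The array also carries control probe sets for ACTA1 at the 3′ end, the middle and the 5′ end of the transcript. At the 3′ end the levels were 7.56, 8.84 and 8.11 in blastocysts and 4.48, 7.14 and 5.27 in degenerative embryos, a difference of -2.54 ± 0.87 with no overlap and of -1.97 without degenerative A. This probe set and the one for the gene are annotated to the same transcript and are not independent measurements, and their Pearson r over the 6 arrays was 0.98. The middle probe set read 2.88, 2.12 and 2.98 in blastocysts and 2.12 in all 3 degenerative pools, so that it did not reach a level of 3 in any pool. The 5′ probe set stayed at 2.20 on all 6 arrays and therefore carried no information on either group. Of the control probe sets of ACTA1, only that at the 3′ end reached a level of 5 in any pool.

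ACTA2, the smooth muscle alpha actin, showed a difference of similar size with more spread. Its levels were 10.16, 10.76 and 11.20 in blastocysts and 6.11, 9.34 and 9.32 in degenerative embryos. All degenerative pools were below all blastocyst pools, and the means were 10.71 ± 0.52 and 8.26 ± 1.86. Degenerative A was far below the others, and the difference of -2.45 ± 1.12 became -1.38 without it and -1.65 without both A pools. The cardiac alpha actin gene ACTC1, which was on the list of further actins and is no member, read 9.54 ± 0.18 in blastocysts and 7.75 ± 0.56 in degenerative embryos, a difference of -1.79 (SE 0.32, limma adjusted p = 0.416). Its pools did not overlap either. Alpha actin proteins are nearly identical, but the likeness of their transcripts at the probes was not examined. Cross-hybridization between these transcripts therefore cannot be told apart from separate signals here.

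**Figure D2:**
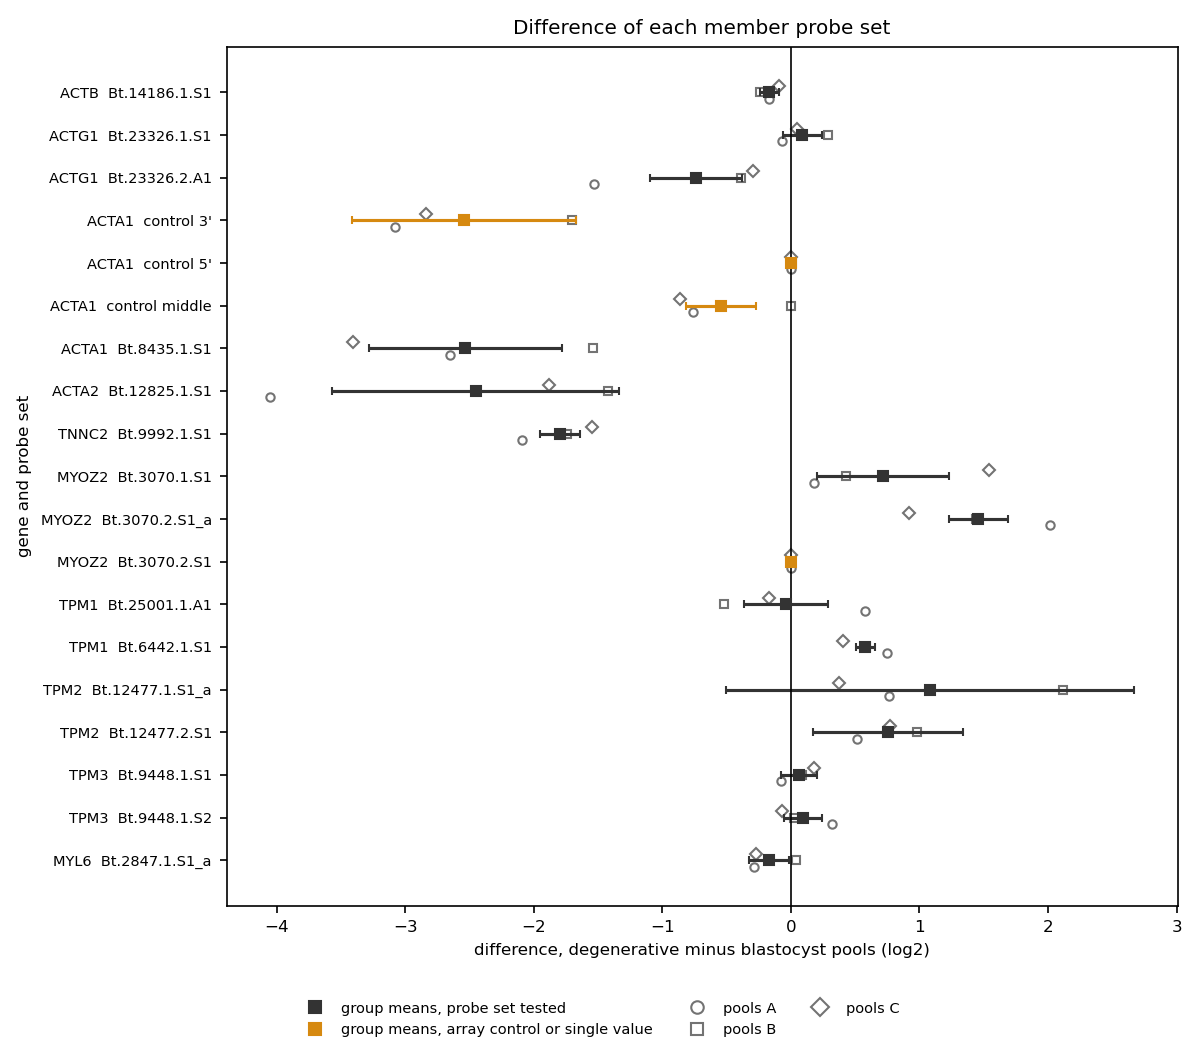
Log2 difference, degenerative minus blastocyst, of each member probe set, with a filled square for the difference of the group means (orange for array controls and the single-value probe set), a bar of 1 standard error to each side (n = 3 pools per group) and open marks for the difference within each pool letter. The differences run from -2.54 for the ACTA1 control at the 3′ end to 1.46 for MYOZ2, and those of ACTB, TPM3 and MYL6 lie near 0.

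Measures of transcript integrity differed between the groups for part of the control genes only. For EIF4E, which encodes the cap-binding protein, the difference was -0.50 at the 3′ end, -1.03 in the middle and -2.25 at the 5′ end, with no overlap of the groups at any position. The gap between the 5′ and 3′ ends of EIF4E was larger in degenerative embryos by -1.75, again with no overlap. For EEF1A1, a translation elongation factor gene, the corresponding value was -1.06, for the cyclophilin gene PPIB -0.37 and for GAPDH -0.07, and for these genes the pools overlapped. The EEF1A1 gap, 5′ minus 3′, was 1.65 in blastocyst A, against -0.87 and 0.35 in blastocysts B and C. For ACTA1 the corresponding value was 2.54, but its 5′ probe set stayed at 2.20 on all arrays. This value therefore only repeats the 3′ difference with its sign turned and carries no information on integrity. GAPDH was higher in every degenerative pool at its 3′ end (0.24) and in its middle (0.45), and PPIB was lower in every degenerative pool at its 5′ end (-0.39). The part of RNA integrity and of amplification in the actin differences was not tested.

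**Figure D3:**
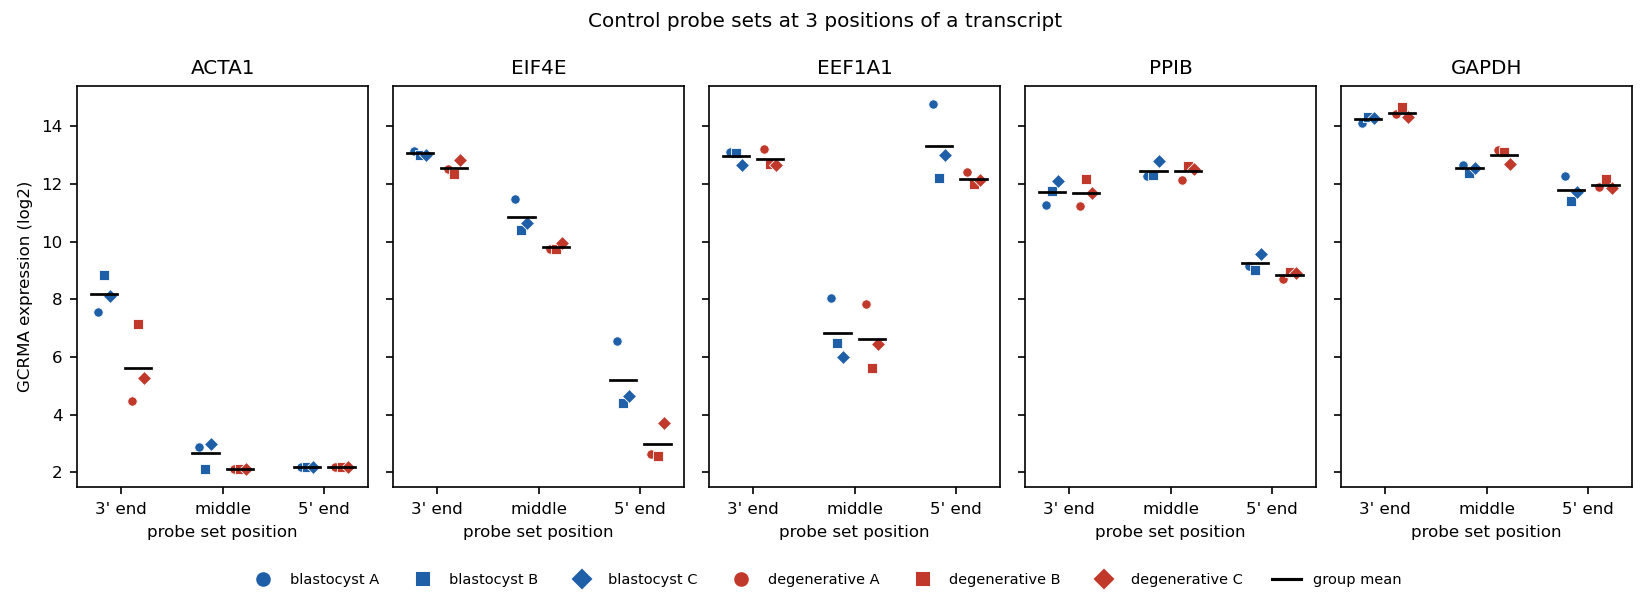
Log2 GCRMA level of the control probe sets at the 3′ end, the middle and the 5′ end of the transcripts of 5 genes, with a mark for each pool and a black line at each group mean. The distance between the groups of EIF4E grows from -0.50 at the 3′ end to -2.25 at the 5′ end, that of GAPDH stays between 0.16 and 0.45, and ACTA1 stays under a level of 3 away from its 3′ end.

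TNNC2, the calcium sensor of fast skeletal muscle, had the most even values of the members that differed by at least 1. Its single probe set read 7.64, 7.74 and 7.50 in blastocysts and 5.55, 5.99 and 5.95 in degenerative embryos. The groups were well separated, at 7.63 ± 0.12 and 5.83 ± 0.24, a difference of -1.79 ± 0.16 or 3.47-fold lower. Within the letters it was -2.09 for A, -1.74 for B and -1.55 for C. Leaving out any pool, or both A pools, gave values between -1.88 and -1.65, so that no single pool carried it. TNNC2 was the only member called by SAM, a call on the contrast with which the gene was picked.

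MYOZ2, the calsarcin of slow and cardiac muscle, was below a level of 5 in every pool on all of its probe sets. On the second of them the levels were 2.76, 2.94 and 3.29 in blastocysts and 4.78, 4.38 and 4.21 in degenerative embryos. These did not overlap, and the difference was 1.46 ± 0.23 towards degenerative embryos. On the first they were 2.16, 2.16 and 2.42 against 2.34, 2.59 and 3.97, which overlapped. That difference of 0.72 ± 0.51 rested on degenerative C, being 0.22 without it. The last MYOZ2 probe set sat at 2.12 on all arrays.

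The tropomyosin genes differed among themselves. TPM1, which encodes tropomyosin isoforms of muscle and of many other cells, read 13.79, 13.86 and 13.99 in blastocysts and 14.54, 14.45 and 14.39 in degenerative embryos on its second probe set. All degenerative pools were higher, with means of 13.88 ± 0.10 and 14.46 ± 0.08 and a difference of 0.58 ± 0.07. It ranged from 0.49 to 0.63 over all alternative settings. The first TPM1 probe set read 8.64, 8.69 and 9.01 against 9.22, 8.17 and 8.84, and its pools overlapped with a difference of -0.04 ± 0.33. The higher TPM1 level was thus seen on 1 of its probe sets only.

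TPM2, the beta tropomyosin gene, varied more between pools than between groups. Its first probe set read 6.01, 8.40 and 9.66 in blastocysts and 6.77, 10.51 and 10.03 in degenerative embryos. The A pool was the lowest of both groups, and the difference of 1.08 ± 1.59 became 0.08 without blastocyst A and 2.25 without degenerative A. It was 1.90 without blastocyst C, 0.38 without degenerative B and 0.62 without degenerative C. On its second probe set, which was under 5 in all pools, the values were 2.45, 2.92 and 3.74 against 2.97, 3.90 and 4.51, with a difference of 0.76 ± 0.59. It was 0.46 without blastocyst A, 1.17 without degenerative A and 0.40 without degenerative C. Among the sarcomere genes that are no members, the LIM protein gene FHL1 had the same low A pools, at 2.12, 4.24 and 7.01 in blastocysts and 3.73, 8.80 and 8.13 in degenerative embryos.

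TPM3 and MYL6 differed by less than the spread between pools. TPM3, whose nonmuscle products are found in most cells, read 13.35, 12.95 and 13.14 against 13.27, 13.04 and 13.32 on its first probe set. On its second it read 13.68, 13.54 and 13.74 against 14.01, 13.56 and 13.67. The differences were 0.06 ± 0.14 and 0.09 ± 0.15, and both changed sign when single pools were left out. MYL6, the essential light chain of smooth muscle and nonmuscle myosin II, read 13.67, 13.68 and 13.99 in blastocysts and 13.38, 13.72 and 13.72 in degenerative embryos. The pools overlapped, with a difference of -0.17 ± 0.16 that was -0.06 without degenerative A and -0.07 without blastocyst C.

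Further genes were counted on 12 lists that did not include the members, 6 of the actin and sarcomere machinery and 6 of cell type markers. No gene of these lists passed limma at an adjusted p of at most 0.15, which 0.0366% of the 8189 genes tested did. Of the 162 distinct genes on the lists, 11 (6.79%) had an unadjusted p under 0.05 and a lower level in degenerative embryos, against 5.65% of all genes, and 6 (3.70%) had a higher one, against 4.68%. SAM called 0 of the 162. Of the 116 distinct genes on the machinery lists, 8 (6.90%) were in the lower and 6 (5.17%) in the higher direction at that p.

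Among the 25 measured sarcomere genes other than the members, 7 were lower and 18 higher in degenerative embryos on average, with a median difference of 0.14 against 0.02 over all genes. However, 6 of the 25 had a single value in all blastocyst pools, and of the 10 with a mean level of at least 5 over all pools, 5 were lower and 5 higher, with a median of -0.08. At an unadjusted p under 0.05 there was 1 in each direction. These were MYBPC3, the cardiac myosin-binding protein C gene, at -1.90 (limma adjusted p = 0.535), and MYH7, the slow myosin heavy chain gene, at 1.04 (adjusted p = 0.509). The fast troponin genes TNNI2 and TNNT3, whose products form a complex with TNNC2 in muscle, were near the floor in all 6 pools, as were MYL1, MYL2, MYL3, MYBPH and MYOT. Other troponin genes were not all low. TNNI3 read 6.81 to 8.94 and TNNC1 6.44 to 7.44 over the 6 pools, with overlap between the groups, whereas TNNT1 and TNNT2 stayed under a level of 3.

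Markers of skeletal muscle cells were mostly near the floor in these embryos. Of the 10 on the array, 6 were near the floor in every pool, among them MYOD1, MYOG and MYF6, which determine the muscle lineage. CKM, the muscle creatine kinase gene, was the only one to reach a level of 5, at 5.69, 5.87 and 7.81 in blastocysts and 6.22, 9.81 and 8.48 in degenerative embryos, which overlapped. The summed level of the list lay between 6.58 and 8.07 in blastocysts and between 6.91 and 9.88 in degenerative embryos. The other 3 tested genes of the list had a single low value in all blastocyst pools and could not read lower in degenerative embryos.

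Smooth muscle and stromal markers, with which ACTA2 is usually expressed, also overlapped between the groups. Their summed level was 11.78 to 12.55 in blastocysts and 11.33 to 13.30 in degenerative embryos, and 7 of 13 reached a level of 5 in some pool. Of the 12 tested, 4 were lower and 8 higher in degenerative embryos, with a median of 0.16. Without degenerative A the median was 0.57. COL3A1, a fibrillar collagen gene, read 3.96 in all 3 blastocyst pools and in degenerative A, and 5.77 and 5.70 in degenerative B and C. Without degenerative A it passed limma at an adjusted p of 0.0660, against a blastocyst group with no spread and a single low value, so that no size is given for it. At the adjusted threshold it was the only call on any list under the settings tried.

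Regulators of the actin filament were split in direction. Among 27 genes of monomer binding and filament assembly, 16 were lower and 11 higher, the median was -0.07, and 1 had an unadjusted p under 0.05. This was FMNL2, a formin that elongates filaments, at -1.23 (limma adjusted p = 0.514). DSTN, which severs filaments, differed by -0.58 and by -0.32 without degenerative A. CFL2 of the same family was at -0.92, and at -0.47 without blastocyst A. WASL, an activator of branched filaments, was at -0.72, and at -0.40 without degenerative B. None of these passed the test. Among the 36 genes of filament capping, bundling and membrane linking, 22 were lower and 14 higher, also with a median of -0.07.

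Of those 36, 4 had an unadjusted p under 0.05 with a lower level in degenerative embryos and 3 with a higher one. PLS1, a bundling protein of microvilli, was at -1.06 (limma adjusted p = 0.451), NHERF1, an apical scaffold that binds ezrin, at -0.61 (adjusted p = 0.451) and EZR, the gene of ezrin itself, at -0.53 (adjusted p = 0.459). PLS3, another gene of the plastin family, lay in the other direction at 1.38 (adjusted p = 0.491). None of these passed the adjusted threshold.

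Nonmuscle myosin II and its regulators had 6 lower and 5 higher genes of 11 tested, with a median of -0.21 and none at an unadjusted p under 0.05. CALD1, which encodes the actin- and myosin-binding protein caldesmon, was at -0.96, but at -0.49 without blastocyst A and -1.44 without degenerative A. Serum response factor is a transcription factor known to drive many actin genes. Of 18 measured genes on its list, 7 were lower and 11 higher, with a median of 0.14. These were SRF itself and targets, and none of the listed cofactors was measured. At an unadjusted limma p under 0.05, 1 of them was lower and 3 were higher. The lower gene was MYADM, at -0.73 (limma adjusted p = 0.470). The higher genes were EGR1, an immediate early target, at 1.31 (adjusted p = 0.479), IER2 at 0.61 (adjusted p = 0.479) and FLNA at 0.61 (adjusted p = 0.532). Of the 4 tested genes on the list of other actins and tropomyosins, 3 were lower and 1 higher, with a median of -0.09, and TPM4, the nonmuscle tropomyosin, was at -0.17.

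**Figure D4:**
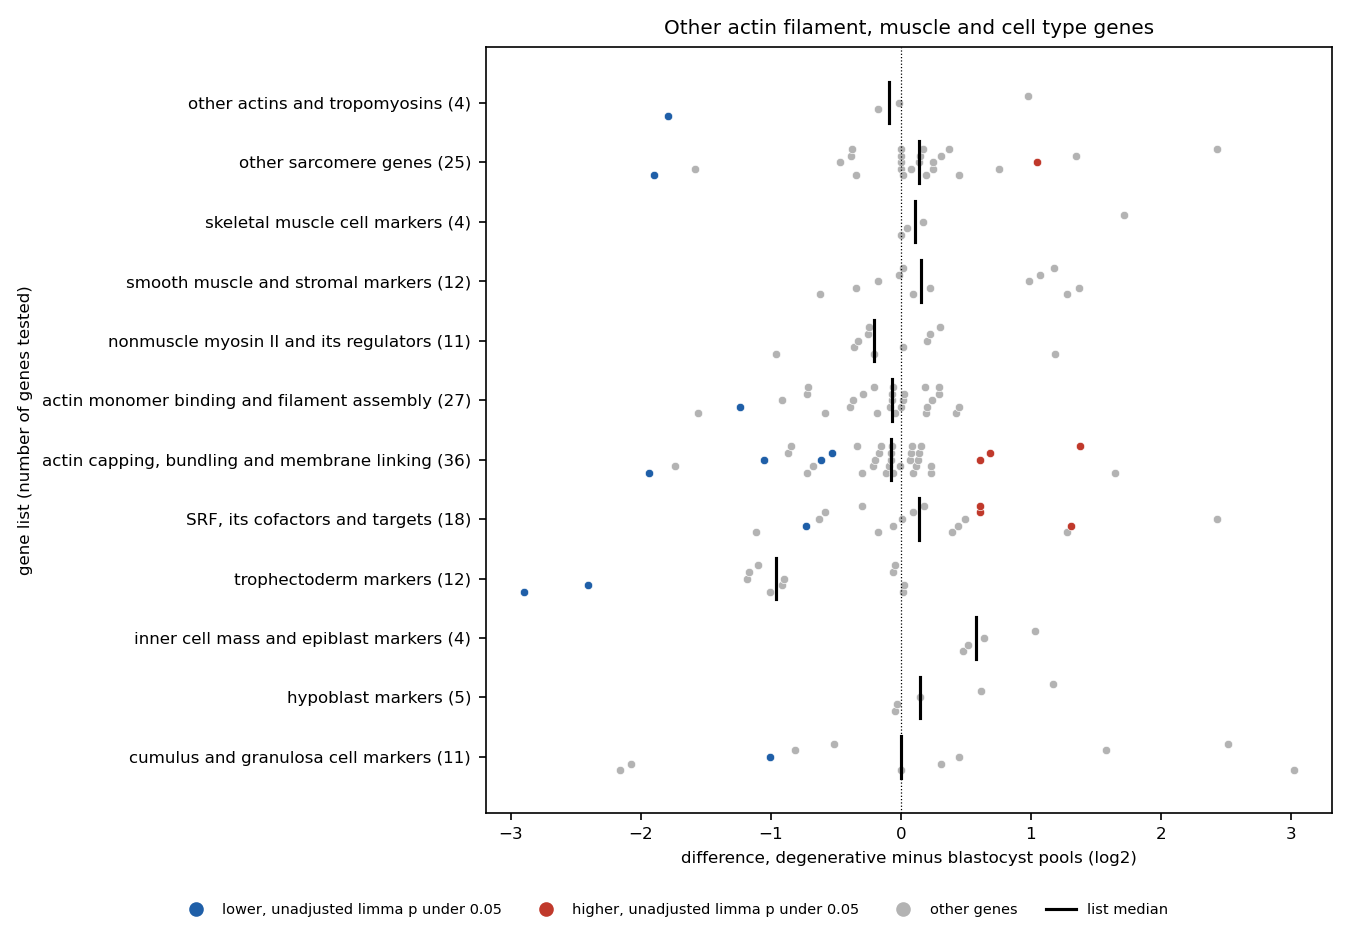
Log2 difference, degenerative minus blastocyst, of each tested gene on the 12 lists, with 1 point per gene, blue or red where the unadjusted limma p was under 0.05, and a black line at the median of the list. The trophectoderm list has the lowest median (-0.96) and the inner cell mass list the highest (0.58), with the nonmuscle myosin II list at -0.21 and the other sarcomere genes at 0.14.

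Cell type markers were compared between the same pools, and whether they varied together with the muscle actins and TNNC2 was not tested. Trophectoderm markers, of the outer epithelium that forms the placenta, had lower means in 10 of 12 tested genes with a median of -0.96. Without degenerative A, 8 of 12 had lower means and the median was -0.19. Their summed level was 16.29 to 16.65 in blastocysts and 15.87 to 16.19 in degenerative embryos, without overlap. TFAP2A, a trophectoderm transcription factor, had the largest drop on the list, at -2.90 (limma adjusted p = 0.470). KRT18, KRT8 and TEAD4 differed little, at -0.06, -0.04 and 0.02. The listed genes CDX2, GATA2, GATA3 and TFAP2C were not measured. All 4 tested markers of the inner cell mass, out of 10 listed, had higher means, with a median of 0.58, but NANOG was not measured. Their summed level was 13.93 to 14.06 in blastocysts against 14.18 to 14.99 in degenerative embryos, and none of the 4 passed the adjusted threshold. Without degenerative A the median was 0.28 and DNMT3B turned to -0.094. Hypoblast markers had 2 lower and 3 higher genes with a median of 0.15.

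Cumulus and granulosa markers, of the follicle cells that surround the oocyte, had a summed level of 14.01 to 14.57 in blastocysts and of 13.41 to 13.60 in degenerative embryos. These did not overlap, but the brightest contribution was PTGS2, the inducible prostaglandin synthase gene, which read 14.24, 13.54 and 13.57 against 12.70, 12.64 and 13.00 (limma adjusted p = 0.479). The 11 tested genes were split into 6 lower and 5 higher with a median of 0.00. INHBA, an inhibin and activin subunit gene, differed by 2.51 in the other direction (1.37 without blastocyst A). VCAN differed by 1.58 and PTX3 by 3.02, the pools of VCAN and PTX3 overlapping. Lower means, also with overlapping pools, were those of HSD3B1 (-2.16), CYP19A1 (-2.08), TNFAIP6 (-0.82) and FSHR (-0.52). In HSD3B1 degenerative A read 6.12, against 11.52 and 11.12 in degenerative B and C. The defining genes FOXL2, AMH and INHA were near the floor in all pools. The part of cell type makeup in the differences of the actins and TNNC2 was not tested.

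Only the transcripts closest to each ACTA1 probe set in their pattern over the 6 arrays were listed. None of those listed was a sarcomere gene, which does not exclude sarcomere genes from the other close candidates. For the control probe set at the 3′ end these were RSU1, MOG and PSAT1, with Pearson r of 0.987, 0.982 and 0.982 among 7620 candidates whose mean reached 5 in blastocysts, in degenerative embryos or in both. For the other ACTA1 probe set they were MBTPS2, PSAT1 and WTIP, with r of 0.987, 0.981 and 0.977. Since 105 and 70 candidates, respectively, exceeded an r of 0.9 over only 6 arrays that share the same group difference, these values are a description and no p is given. The control probe set at the 3′ end had an r of 0.87 with ACTA2 and 0.88 with TNNC2.

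Genes next to the members on the chromosome were measured in 8 cases and overlapped between the groups in all of them. Overlap was the usual case, since 8.93% of all tested probe sets were lower and 6.48% higher in degenerative embryos without overlap. NUP133, beside ACTA1, differed by 0.13, FAS, beside ACTA2, by 0.17 and UBE2C, beside TNNC2, by -0.06. The neighbours of TPM1, LACTB and TLN2, differed by 0.71 and -0.11, and USP53, beside MYOZ2, by 0.50. TLN1, beside TPM2, was at 0.15 and CFAP141, beside TPM3, at 0.00.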

How the data were processed

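RNA from 6 pools of 20 embryos was amplified, biotin labelled and hybridized to Affymetrix bovine arrays. The authors deposited log2 values normalized with GCRMA (version 2.14.1), and these were used without further scaling. Genes were named from the platform annotation. Symbols were updated from the RefSeq gene table of ARS-UCD2.0, whose gene coordinates were used to find the neighbours. The 20 annotated control probe sets and 5079 that took 1 value throughout were not tested, which left 18937, of which 11002 had 1 gene symbol, 64 several and 7871 none. Groups were compared by the moderated test of limma (version 3.58.1, R version 4.3.3) with Benjamini-Hochberg adjustment and a threshold of 0.15, and with SAM, rewritten from its description, over all 20 relabelings. Both were tested on simulated data. Errors of member differences are ordinary standard errors of 2 means.

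The members and gene lists were chosen with earlier results of these data known. Each listed gene was read on its brightest probe set, and up to 4 genes per list with the smallest p could be named. All probe sets of members were named, with the 3 genes most like each of the 2 largest member differences. FHL1, PTX3, HSD3B1, CYP19A1, TNFAIP6, TNNI3, TNNC1, TNNT1 and TNNT2 fell outside this rule, as did LUM, DCN, THY1, KRT8, KRT18 and TEAD4. So did the genes named for being near the floor. All of these were chosen after their values were seen.

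Deviations from the group means correlated between pools of the same letter (r = 0.373 for A, 0.180 for B and 0.275 for C). The letters were therefore taken to pair the pools in an alternative fit, although the labels do not say what a letter marks. The tests and standard errors given above took the pools as unpaired. With the letter as a replicate block, limma called 0 probe sets in place of 4, and 1789 in place of 1631 had an unadjusted p under 0.05. Alternatives were median centring, a filter at a mean level of 5, an intensity trend, array weights, leaving out each pool and leaving out both A pools. Array number limits the precision.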

Additional observations from a re-analysis of the deposited data

How the results depend on the processing

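Of the 18 member probe sets with a difference other than 0, 14 kept the sign of their difference under all 12 alternative settings that gave a value. The exceptions were the ACTA1 control at the 5′ end, which stayed at 2.20, the first TPM1 probe set (-0.35 to 0.25) and both TPM3 probe sets. Members lower in every degenerative pool numbered 5, and 4 to 5 under the alternatives. Members higher in every degenerative pool numbered 2, 1 with a filter at a mean level of 5, 6 without both A pools, and 2 to 5 when single pools were left out, 5 being without degenerative A and 4 without blastocyst C, where fewer pools make an overlap rarer. limma called 4 probe sets on the array, 1 after centring each array on its median, 1 with the filter, 0 with an intensity trend, 57 with array weights and 0 without both A pools, and SAM called 67. With the replicate block, which takes the pools of a letter as paired, it called 0. Without single pools the count ran from 0 to 33, being 33 without degenerative A, 12 without degenerative C, 2 without blastocyst A and 0 otherwise. For each of these settings the cause was not tested. On the gene lists it called 0 genes under every setting except for 1 without degenerative A (0 to 1 when pools were left out), and 17 had an unadjusted p under 0.05.

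Of the 48 list genes tracked, 44 kept their sign. ACTL6A turned to 0.013 after centring and ran from -0.38 to 0.21 when pools were left out, and HNF4A turned to -0.14 with array weights and ran from -0.060 to 0.49. When pools were left out, GATA6 ran from -0.15 to 0.046 and DNMT3B from -0.094 to 1.04. None of these reached a call. Values within 0.01 of the floor cannot show a lower level.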
